A study of Mus musculus with 5 samples.

Results

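The liver transcriptome of mice that had both interventions of this study, withdrawal of a high-fat, high-fructose diet (HFHFr) and all-trans retinoic acid, was compared with that of mice kept on the diet. The comparison took 2 of the 5 arrays of the series, the array titled HFHFr-NA and the array titled HFHFr-F, by their titles. All groups were male C57BL/6J mice, an inbred laboratory strain, whose livers were taken at 25 weeks of age, and each array received RNA pooled from 5 mice. HFHFr-NA mice ate the diet for 16 weeks and then normal chow supplemented with all-trans retinoic acid for 4 weeks, and the labels describe them as recovered from insulin resistance. HFHFr-F mice ate the diet for the whole 20 weeks and are described as severely insulin resistant. The groups that carried 1 intervention each are given beside these values. HFHFr-N mice had normal chow alone in the last 4 weeks and were insulin resistant. HFHFr-FA mice had retinoic acid added to the continued diet and showed slight steatosis without insulin resistance. The Control group was untreated. HFHFr-NA differs from HFHFr-F in both chow and retinoic acid, so the part of each in a difference between these arrays cannot be told apart from this pair alone.

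With 1 pooled array in each group there was no replicate, no test between groups and no standard deviation, and "higher" and "lower" describe the pools. Values are the processed Cy3 signal divided by the 75th percentile of the array's non-control spots, so that 1 is the 75th percentile, and differences are log2 ratios of HFHFr-NA over HFHFr-F unless another pair is named. HFHFr-NA and HFHFr-F were hybridised on the same slide, together with HFHFr-N and Control, whereas the HFHFr-FA array had a second slide of its own. Of 43379 non-control spots, 49.0% were well above background on HFHFr-NA and 48.3% on HFHFr-F. Repeated spots of a probe had a median standard deviation of 0.0756 on HFHFr-NA and 0.0745 on HFHFr-F (log2), and the scanner software's own error of a log2 ratio had a median of 0.205. Neither covers the spread between mice, extractions or arrays, and the number of arrays limits the precision. Whole liver RNA was measured, so fewer cells of a type and less RNA per cell cannot be told apart.

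Of 14950 genes well above background on HFHFr-NA, HFHFr-F or both, 7.82% were at least 2-fold apart, which is the call used throughout. There were 529 genes at least 2-fold higher in HFHFr-NA (3.54%) and 640 at least 2-fold lower (4.28%). At least 4-fold apart were 66 higher and 93 lower genes, and at least 8-fold apart 8 higher and 26 lower. Among the 13685 genes measured on both arrays, the middle 90% of log2 ratios ran between -0.86 and 0.81. Over all 14950 genes the median was 0.13. This median depends on the scaling: it was 0.01 when arrays were scaled to their own median, so list medians are read against it. The higher genes made up 45.3% of the called genes, against 32.6% with that scaling, 32.9% after cyclic loess, 34.4% after another background correction with quantile normalization and 55.0% with no filter on dim probes. For the single interventions, which share the HFHFr-F array with this comparison, 319 genes were higher (2.16%) and 537 lower (3.63%) in HFHFr-N than in HFHFr-F, and 405 were higher (2.71%) and 423 lower (2.83%) in HFHFr-FA than in HFHFr-F.

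**Figure D1:**
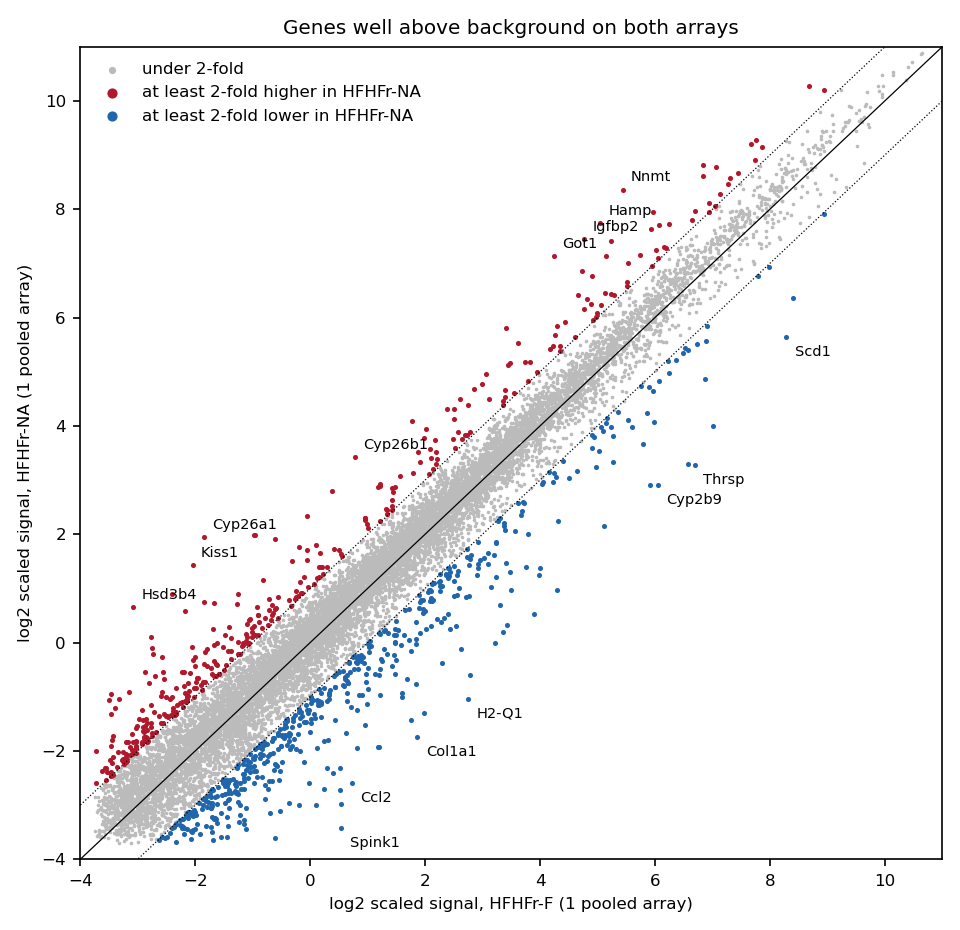
Log2 scaled signal of each gene well above background on both arrays, HFHFr-NA on the vertical axis and HFHFr-F on the horizontal axis, 1 pooled array each. Solid line, equal signal; dotted lines, 2-fold; red points are at least 2-fold higher and blue points at least 2-fold lower in HFHFr-NA, with 368 and 507 genes among those measured on both arrays.

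All-trans retinoic acid is the hormone form of vitamin A. It binds nuclear receptors of the RAR family, which pair with RXR on repeated hexamers in DNA and raise transcription, among others of the CYP26 enzymes that break the hormone down. A diet rich in fat and fructose is known to drive fatty acid synthesis in hepatocytes and, over months, to bring macrophages, inflammation and collagen into the liver, while the hepatocyte also carries the urea cycle, amino acid breakdown, bile acid synthesis and detoxification.

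Cyp26a1, the main retinoic acid hydroxylase of liver, had the highest ratio of all genes measured on both arrays. Its signal was 3.84 on HFHFr-NA, 1.46 on HFHFr-N, 0.596 on HFHFr-FA, 0.276 on HFHFr-F and 1.53 on Control. HFHFr-NA was the highest and HFHFr-F the lowest of the 5 pools, 13.9-fold apart (log2 ratio 3.80), with a ratio of 2.40 for HFHFr-N over HFHFr-F and 1.11 for HFHFr-FA over HFHFr-F. The probe lies at chr19:37775566-37775625 (mm9). It is shown with the 250 bases before the gene's start on the plus strand, chr19:37697558-37697807 (RefSeq, GRCm38.p6), where capitals mark the paired retinoic acid hexamers and the 5 bases between them, because this gene leads the comparison.

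Cyp26a1 probe: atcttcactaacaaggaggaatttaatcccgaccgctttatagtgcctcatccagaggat

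Cyp26a1 promoter: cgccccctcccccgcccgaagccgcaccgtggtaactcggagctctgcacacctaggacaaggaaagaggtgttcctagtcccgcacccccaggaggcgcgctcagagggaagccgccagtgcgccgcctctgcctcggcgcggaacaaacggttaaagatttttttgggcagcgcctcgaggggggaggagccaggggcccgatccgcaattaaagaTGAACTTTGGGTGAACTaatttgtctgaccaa

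A search on both strands for AGGTCA or AGTTCA repeated in the same direction 5 bases apart found this pair at -32 to -16 from the start, on the minus strand. Of 32851 promoter windows of this length, 11 held such a pair (0.0335%), and of the 23 retinoid genes with a window Cyp26a1 was the 1 that did. The search took these exact hexamers and this spacing alone. It cannot show that the other retinoid genes lack a retinoic acid element of another form or place. Of the 11 genes with the pair, 3 were measured here, and the other two had log2 ratios of -0.51 and 0.14.

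Cyp26b1, a related hydroxylase, had 10.7 on HFHFr-NA, 1.29 on HFHFr-N, 7.46 on HFHFr-FA, 1.71 on HFHFr-F and 1.90 on Control. Its ratio was 2.64, and here the pools given retinoic acid stood above the other three: HFHFr-FA over HFHFr-F was 2.12, and HFHFr-N over HFHFr-F was -0.41. Rarb, the retinoic acid receptor gene that is itself a known receptor target, had 2.38 on HFHFr-NA, 1.04 on HFHFr-N, 1.27 on HFHFr-FA, 1.34 on HFHFr-F and 0.801 on Control. HFHFr-NA was the highest pool for Rarb, under 2-fold from HFHFr-F (0.83). Of the 24 measured genes of retinoic acid clearance, reception and retinoid handling, 2 were at least 2-fold higher and 1 lower, with a median of -0.10 against 0.13 over all genes. The lower gene was Aldh1a3, a retinaldehyde dehydrogenase that makes retinoic acid, at 0.0967 on HFHFr-NA against 0.195 on HFHFr-F (-1.01). That call ended with the mean of all its probes (-0.50), which takes in probes not well above background.

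Over 45 lists of pathway genes and cell type markers, the medians that lay farthest above that of all genes were those of periportal hepatocytes and of the urea cycle with amino acid catabolism. Farthest below lay the lipid-associated macrophage, class II and inflammation lists. In all, 2 lists had a median above 0.5 and 13 a median below -0.5. Among the 13, the skeletal muscle list rested on 1 measured gene, the adipocyte list on 2 and the mesothelial list on 3. General hepatocyte markers such as albumin and coagulation factors had a median of 0.28 with 0 of 15 called, and subunits of oxidative phosphorylation 0.19 with 0 of 19 called.

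**Figure D2:**
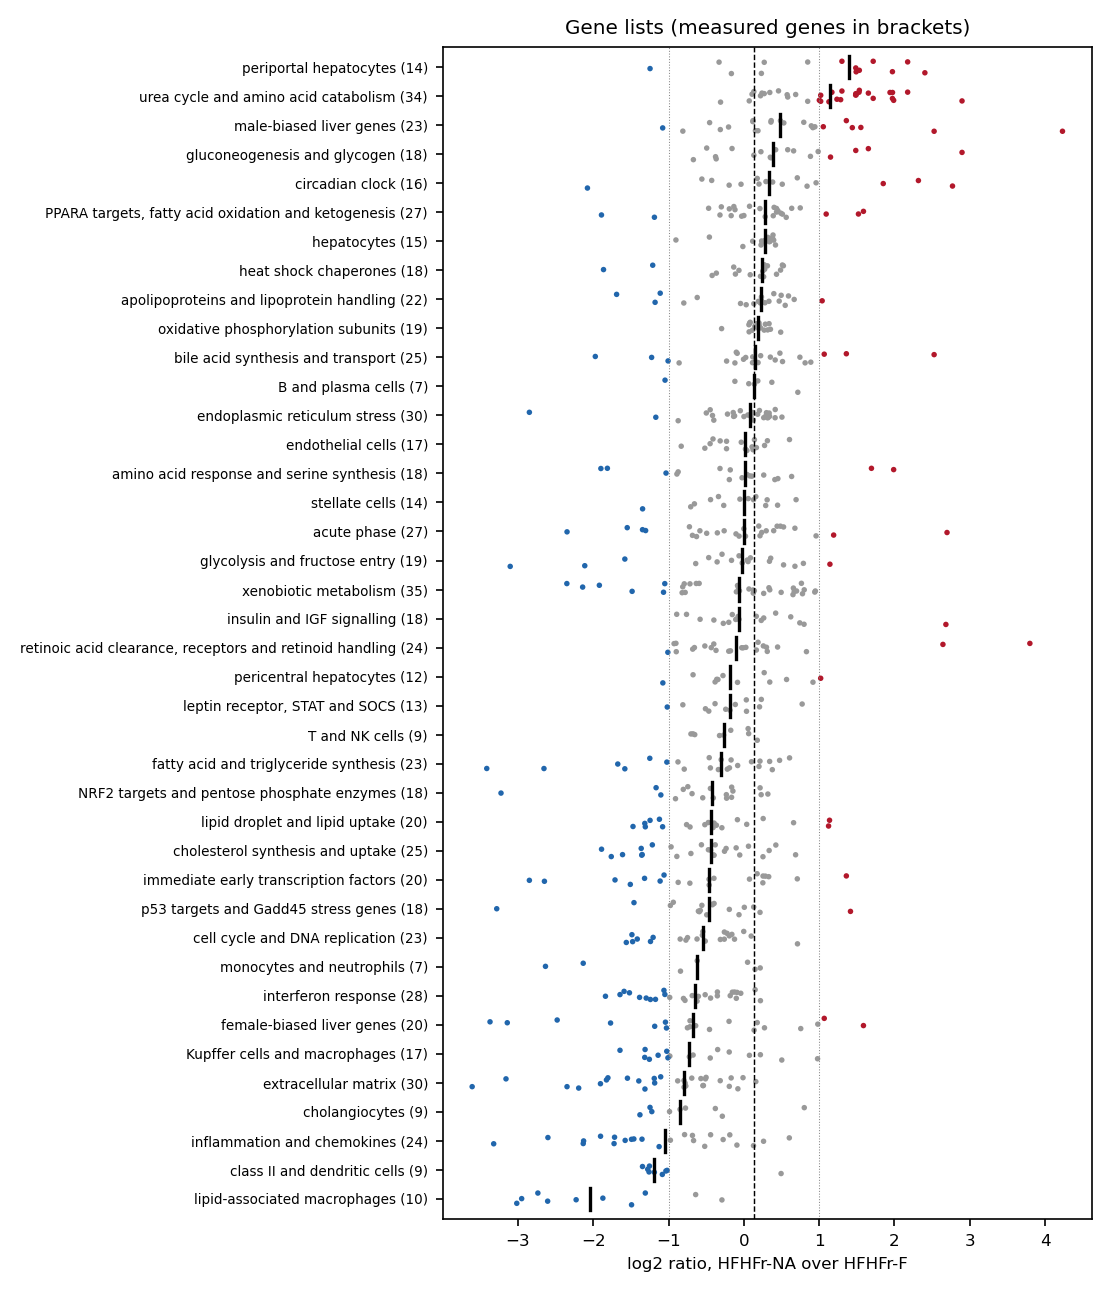
Log2 ratio of HFHFr-NA over HFHFr-F for the measured genes of each list, 1 point per gene, with the number measured in brackets. Black bars are list medians, the dashed line is the median of all genes (0.13), dotted lines mark 2-fold, and red and blue points are called higher and lower; the urea cycle list has 21 red points and 0 blue ones, the lipid-associated macrophage list 0 red and 8 blue.

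Most measured genes of the urea cycle, which turns ammonia into urea in periportal hepatocytes, and of the enzymes that feed amino acid nitrogen into it were higher in HFHFr-NA. The list had 21 of 34 measured genes higher by at least 2-fold and 0 lower, with a median of 1.15 that was 0.98 after cyclic loess. The list's median was 0.56 for HFHFr-N over HFHFr-F (3 higher, 0 lower) and 0.32 for HFHFr-FA over HFHFr-F (3 higher, 0 lower). Against Control the HFHFr-NA median was 0.32, and that of HFHFr-F was -0.92.

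Among the enzymes of the cycle itself, Cps1, which makes carbamoyl phosphate, had 247 on HFHFr-NA, 117 on HFHFr-N, 116 on HFHFr-FA, 62.8 on HFHFr-F and 163 on Control (ratio 1.97). Ass1, argininosuccinate synthase, had 200.1 on HFHFr-NA, 93.5 on HFHFr-N, 95 on HFHFr-FA, 60.9 on HFHFr-F and 114 on Control (1.72). Asl, the lyase that releases arginine, had 170.5 on HFHFr-NA, 64.8 on HFHFr-N, 92.2 on HFHFr-FA, 37.8 on HFHFr-F and 104 on Control (2.17). For these 3 genes HFHFr-NA was above every other pool, Control included, and HFHFr-F was below every other pool. Carriers of the cycle were higher too, with smaller ratios: Slc25a13, the mitochondrial aspartate-glutamate carrier citrin, differed by 1.13 and Slc25a15, the ornithine carrier, by 1.02.

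Got1, the cytosolic aspartate aminotransferase, was the gene of the list farthest apart. Its signal was 141 on HFHFr-NA, 30.7 on HFHFr-N, 46.0 on HFHFr-FA, 18.9 on HFHFr-F and 63.2 on Control, a ratio of 2.90. HFHFr-NA exceeded the nearest single intervention, HFHFr-FA, by 1.61 and Control by 1.16. Enzymes that break down individual amino acids were also higher: Tat (tyrosine aminotransferase) by 1.65, Sds (serine dehydratase) by 1.49, Hal (histidine ammonia lyase) by 1.53, Hpd of the tyrosine route by 1.48 and Aass of the lysine route by 1.24. Gls2, liver glutaminase, had 129.5 on HFHFr-NA against 46.1 on HFHFr-F (1.49). Agxt, alanine-glyoxylate aminotransferase, had 452 on HFHFr-NA against 115 on HFHFr-F (1.97).

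Genes of the sulfur amino acid route were also higher. Mat1a, which makes S-adenosylmethionine, differed by 1.29 and Gnmt, which uses it to methylate glycine, by 1.53. Cbs, cystathionine beta-synthase, had 15.5 on HFHFr-NA, 12.6 on HFHFr-N, 8.82 on HFHFr-FA, 4.03 on HFHFr-F and 15.5 on Control (1.94), so that HFHFr-NA and Control were level and HFHFr-F was the lowest. Cth, the cystathionase that follows it, had 142 on HFHFr-NA against 35.7 on HFHFr-F (1.99). Nnmt, which methylates nicotinamide with S-adenosylmethionine and stands outside the list, had 329 on HFHFr-NA, 124 on HFHFr-N, 118 on HFHFr-FA, 43.4 on HFHFr-F and 154 on Control. Its ratio of 2.92 was among the 15 highest, and HFHFr-NA lay above Control by 1.09.

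**Figure D3:**
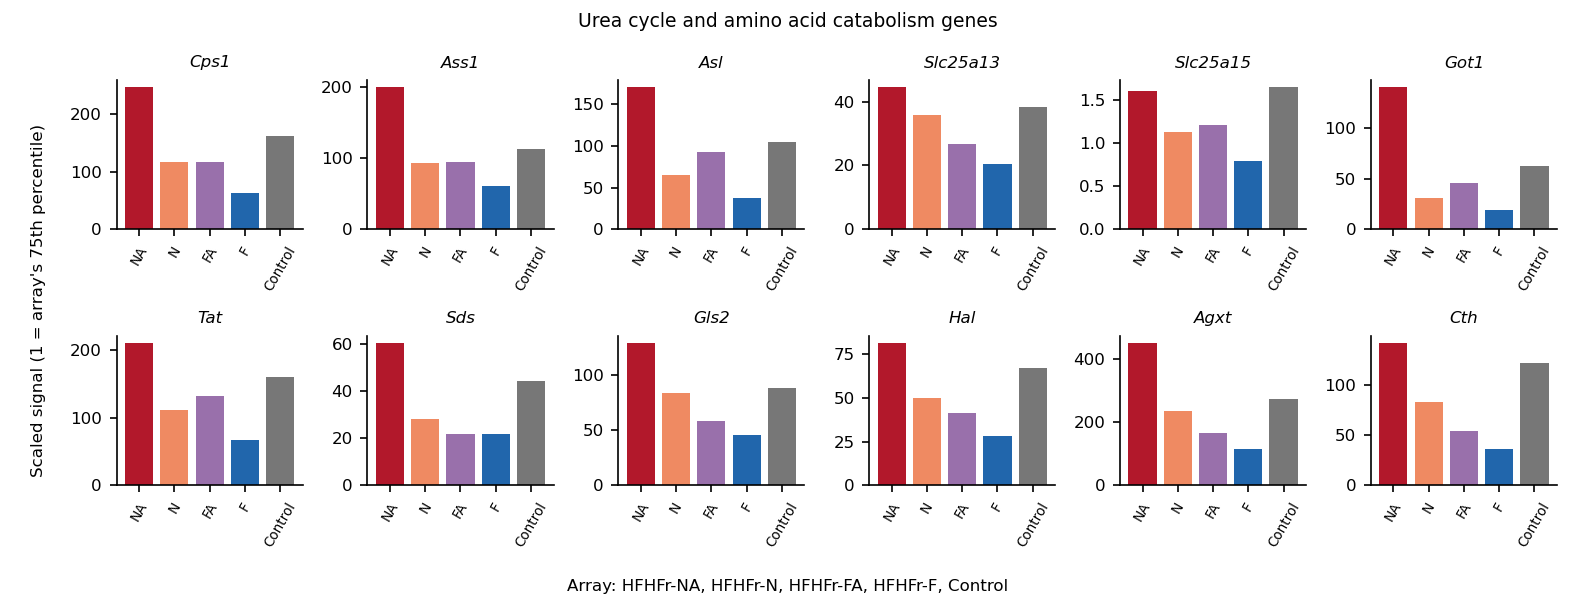
Scaled signal on each array (1 is the array's 75th percentile; linear axes from 0) for 12 genes of the urea cycle and amino acid breakdown, 1 bar per pooled array in the order HFHFr-NA, HFHFr-N, HFHFr-FA, HFHFr-F, Control. HFHFr-NA is the highest bar in 11 panels, while Slc25a15 is slightly higher in Control.

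The median of periportal markers was 1.39 (8 of 14 higher, 1 lower), though 7 of the 8 also stand in the amino acid list. The remaining gene was Etnppl, a phospholyase of phosphoethanolamine, with 56.1 on HFHFr-NA, 27.8 on HFHFr-N, 13.1 on HFHFr-FA, 10.6 on HFHFr-F and 38.7 on Control (2.40). Hsd17b13, a lipid droplet protein of periportal cells, was the lower gene (-1.25), but another of its probes had 0.26. For pericentral markers it was -0.18 (1 of 12 higher, 1 lower). In the gluconeogenesis and glycogen list 4 of 18 were higher and 0 lower (median 0.39). Of these, Got1, Tat and Sds are the amino acid enzymes above, and Gys2, liver glycogen synthase, had 223 on HFHFr-NA against 101 on HFHFr-F (1.15, 0.95 after cyclic loess).

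Part of the fat synthesis genes were lower in HFHFr-NA. Of 23 measured genes of fatty acid and triglyceride synthesis 6 were lower and 0 higher, with a median of -0.30. Thrsp, a nuclear protein that promotes lipogenesis, had 9.70 on HFHFr-NA, 10.1 on HFHFr-N, 7.56 on HFHFr-FA, 103 on HFHFr-F and 3.09 on Control (-3.41). The HFHFr-F pool alone was high for Thrsp, and the 3 intervention pools lay close together. Scd1, the stearoyl-CoA desaturase, had 49.7 on HFHFr-NA, 249 on HFHFr-N, 38.4 on HFHFr-FA, 313 on HFHFr-F and 214 on Control (-2.65). For Scd1 the pools split otherwise: HFHFr-NA and HFHFr-FA, both given retinoic acid, were low, and HFHFr-N was near HFHFr-F with a ratio of -0.33. Mogat1, a monoacylglycerol acyltransferase, had a ratio of -1.67 and Pklr, liver pyruvate kinase, of -1.58. Fasn, fatty acid synthase, had 17.7 on HFHFr-NA against 35.9 on HFHFr-F (-1.02), just past 2-fold. Srebf1, the gene of the transcription factor that drives these enzymes, had 24.7 on HFHFr-NA, 39.4 on HFHFr-N, 19.6 on HFHFr-FA, 45.3 on HFHFr-F and 11.9 on Control (-0.88) and was not called.

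Hk2, a hexokinase that is usually low in hepatocytes, had 0.288 on HFHFr-NA against 1.25 on HFHFr-F (-2.11). The fructose transporter gene Slc2a5 was higher, with 5.52 on HFHFr-NA against 2.50 on HFHFr-F (1.14). Of the 19 glycolysis and fructose genes, 1 was higher and 3 were lower.

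Lipid droplet and uptake genes had 6 lower and 2 higher members of 20, with a median of -0.44. Lower were Fabp4, a fatty acid chaperone, with 8.21 on HFHFr-NA against 22.8 on HFHFr-F (-1.47), the droplet proteins Cidea (-1.32) and Plin4 (-1.08), the fatty acid translocase Cd36 (-1.12) and lipoprotein lipase Lpl (-1.31). Hsd17b13 was called lower as well (-1.25), but another of its probes had 0.26. For Cidea and Cd36, HFHFr-N was near HFHFr-F (HFHFr-N over HFHFr-F -0.14 and 0.03). Higher were Pnpla2, the triglyceride lipase ATGL (1.14), and its inhibitor G0s2 with 85.5 on HFHFr-NA against 39.2 on HFHFr-F (1.12). Pparg, a nuclear receptor linked to fat storage, had 5.47 on HFHFr-NA against 9.26 on HFHFr-F and was not called.

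Targets of the fatty acid sensor PPARA, which turns on fat oxidation, were mostly under 2-fold: 3 of 27 were higher and 2 lower (median 0.28). Higher were the omega-hydroxylases Cyp4a14, with 1243 on HFHFr-NA against 414 on HFHFr-F (1.59), and Cyp4a10 (1.52), and the peroxisomal enzyme Ehhadh (1.09). Pdk4, the kinase that switches off pyruvate dehydrogenase, had 1.36 on HFHFr-NA, 1.01 on HFHFr-N, 15 on HFHFr-FA, 5.05 on HFHFr-F and 2.47 on Control (-1.89). HFHFr-NA and HFHFr-N were low for Pdk4 and HFHFr-FA was above HFHFr-F. Cpt1a, which admits fatty acids to mitochondria, had 121 on HFHFr-NA against 89.7 on HFHFr-F (0.43).

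Of the cholesterol synthesis and uptake genes 7 of 25 were lower and 0 higher, and the median was -0.44. Fdps, farnesyl diphosphate synthase, had 1.31 on HFHFr-NA, 1.51 on HFHFr-N, 3.67 on HFHFr-FA, 4.84 on HFHFr-F and 1.72 on Control (-1.89). Sqle, squalene epoxidase, had 1.19 on HFHFr-NA, 0.464 on HFHFr-N, 3.68 on HFHFr-FA, 4.03 on HFHFr-F and 0.789 on Control (-1.76). For both, HFHFr-FA was near HFHFr-F, while HFHFr-NA and HFHFr-N were lower. Hmgcs1, which starts the pathway, had 15.9 on HFHFr-NA against 48.5 on HFHFr-F (-1.61). The list's median was -0.84 for HFHFr-N over HFHFr-F (10 lower, 0 higher) and -0.37 for HFHFr-FA over HFHFr-F (1 lower, 0 higher). Idi1, of the same route, was called lower at -1.22, but another of its probes had 0.73.

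In the bile acid list 3 of 25 were higher and 3 lower. Cyp7a1, the hydroxylase that sets the pace of bile acid formation, had 4.93 on HFHFr-NA, 6.80 on HFHFr-N, 2.51 on HFHFr-FA, 9.90 on HFHFr-F and 4.78 on Control (-1.01, and -0.92 as the mean of its probes). Nr0b2, the repressor SHP that holds Cyp7a1 down, had 1.89 on HFHFr-NA, 2.16 on HFHFr-N, 0.957 on HFHFr-FA, 0.904 on HFHFr-F and 2.32 on Control (1.07), so it stood on the opposite side. Cyp7b1 of the alternative route was higher by 1.36. Among apolipoprotein genes, Apoa4, which is induced by fat in the liver, had 42.2 on HFHFr-NA against 95.6 on HFHFr-F (-1.18), and the phospholipid transfer protein gene Pltp differed by -1.69.

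Liver expression in mice differs between the sexes, set by the pattern of growth hormone release through STAT5B, and the animals here were males. Of 23 measured male-biased genes 6 were higher in HFHFr-NA and 1 was lower (median 0.49, or 0.24 after cyclic loess). Of 20 female-biased genes 7 were lower and 2 higher (median -0.68), and 3 of the 20 were bounds. After the other background correction with quantile normalization the medians were 0.18 for the male-biased and -0.33 for the female-biased list. Hsd3b4, of the 3-beta-hydroxysteroid dehydrogenase family, stands outside both lists. It had 1.57 on HFHFr-NA, 4.71 on HFHFr-N, 2.37 on HFHFr-FA, 0.118 on HFHFr-F and 7.25 on Control (3.73, 13.3-fold). The HFHFr-F pool alone was close to the lowest signals measured, and HFHFr-NA was below HFHFr-N, HFHFr-FA and Control, with -1.59 against HFHFr-N and -2.21 against Control. Its male-specific relative Hsd3b5, not well above background on HFHFr-F, was at least 18.8-fold higher in HFHFr-NA, at 1.38 on HFHFr-NA, 3.97 on HFHFr-N, 2.17 on HFHFr-FA and 6.38 on Control. The probes of this pair lie at chr3:98303072-98303131 and chr3:98422848-98422907 (mm9), and how far such relatives share signal was not measured.

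Slco1a1, an organic anion transporter of male liver, had 3.76 on HFHFr-NA, 4.53 on HFHFr-N, 4.88 on HFHFr-FA, 0.652 on HFHFr-F and 6.37 on Control (2.53). Cyp4a12b was higher by 1.55 and Egfr, the epidermal growth factor receptor gene, by 1.44, with other Egfr probes at 1.57 and 2.99. Elovl3, a fatty acid elongase, was the male-biased gene that was lower, with 7.85 on HFHFr-NA, 14.9 on HFHFr-N, 51.3 on HFHFr-FA, 16.6 on HFHFr-F and 42.6 on Control (-1.08).

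The female-biased cytochromes Cyp2b9 and Cyp2b13 were among the 15 lowest ratios. Cyp2b9 had 7.49 on HFHFr-NA, 22.8 on HFHFr-N, 34.4 on HFHFr-FA, 66.1 on HFHFr-F and 2.76 on Control (-3.14). Cyp2b13 had 1.44 on HFHFr-NA, 5.30 on HFHFr-N, 7.43 on HFHFr-FA, 14.9 on HFHFr-F and 0.698 on Control (-3.37). Both showed the same order, with HFHFr-F highest, then HFHFr-FA, HFHFr-N and HFHFr-NA, and Control lowest, and HFHFr-NA stayed above Control by 1.44 and 1.05. The neurotrophin receptor gene Ntrk2 had 0.346 on HFHFr-NA, 1.14 on HFHFr-N, 0.305 on HFHFr-FA, 1.93 on HFHFr-F and 0.244 on Control (-2.48). It was low in the pools with retinoic acid and in Control. The 2 higher female-biased genes were Cyp3a16 (1.07) and Cyp4a14, which is also a PPARA target.

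The xenobiotic metabolism list held 6 lower and 0 higher genes of 35 (median -0.06). They were the drug pump gene Abcb1a and 5 glutathione transferases, led by Gsta2 and Gsta1. Gsta2 had 2.63 on HFHFr-NA, 9.49 on HFHFr-N, 2.0 on HFHFr-FA, 13.4 on HFHFr-F and 11 on Control (-2.35). Gsta1 had 12.6 on HFHFr-NA, 31.9 on HFHFr-N, 14.1 on HFHFr-FA, 55.8 on HFHFr-F and 29.3 on Control (-2.14). In both the HFHFr-NA and HFHFr-FA pools were low and HFHFr-N lay nearer HFHFr-F. The probes are shown because the pair cannot be treated as independent: capitals mark matching bases within a 28-base stretch that both probes hold, with 27 of 28 bases equal. At their best alignment without gaps the probes of Cyp2b9 and Cyp2b13 matched at 23 of 55 bases and those of Cyp4a10 and Cyp4a14 at 21 of 51, and how far relatives share signal was not measured.

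Gsta1 probe: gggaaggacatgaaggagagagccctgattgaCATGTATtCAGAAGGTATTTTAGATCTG

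Gsta2 probe: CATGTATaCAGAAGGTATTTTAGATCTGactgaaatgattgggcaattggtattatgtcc

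Among 18 NRF2 targets and pentose phosphate enzymes 3 were lower and 0 higher. Cbr3, a carbonyl reductase, had 0.991 on HFHFr-NA, 1.59 on HFHFr-N, 1.89 on HFHFr-FA, 9.27 on HFHFr-F and 1.28 on Control (-3.23), with HFHFr-F alone far above the others. Gclc, the glutamate-cysteine ligase subunit, differed by -1.10. Tkt, transketolase, was called at -1.17, but a second probe had -0.05.

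Many macrophage, inflammatory and matrix genes were lower in HFHFr-NA, and 0 members of these lists were higher. Of 10 measured markers of lipid-associated macrophages, the cells that take up lipid in fatty liver, 8 were lower and 0 higher, with a median of -2.05, which was -1.32 after the other background correction with quantile normalization and -1.51 with the mean of all probes. Of the 10, 2 were such bounds, and the median of genes measured on both arrays was -2.05. The list's median was -2.20 for HFHFr-N over HFHFr-F and -0.70 for HFHFr-FA over HFHFr-F. The signal summed over all 12 matched markers, also those not well above background, was 20.1 on HFHFr-NA, 21.8 on HFHFr-N, 30.0 on HFHFr-FA, 102.6 on HFHFr-F and 18.7 on Control. HFHFr-F was the outlying pool, and Spp1 gave 60.4 of its sum.

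Spp1, osteopontin, had 7.47 on HFHFr-NA, 10.1 on HFHFr-N, 9.98 on HFHFr-FA, 60.4 on HFHFr-F and 7.66 on Control (-3.02). Trem2, the lipid-sensing receptor that names these cells, had 1.24 on HFHFr-NA, 0.649 on HFHFr-N, 2.21 on HFHFr-FA, 5.81 on HFHFr-F and 0.312 on Control (-2.23), and HFHFr-NA was still above Control by 1.99. Cd63, a lysosomal membrane protein, had 2.39 on HFHFr-NA, 1.74 on HFHFr-N, 4.82 on HFHFr-FA, 15.9 on HFHFr-F and 1.46 on Control (-2.74). For Trem2 and Cd63 the HFHFr-FA pool lay between HFHFr-NA and HFHFr-F, and for Spp1 the 3 intervention pools were alike. Itgax, an integrin of macrophages and dendritic cells, had 0.201 on HFHFr-NA against 1.22 on HFHFr-F (-2.61), and Gpnmb, not well above background on HFHFr-NA, was at least 7.73-fold lower. With the mean of all probes these were -0.63 and -0.52 and no longer called.

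Resident Kupffer cell and general macrophage markers differed less: 7 of 17 were lower and 0 higher, with a median of -0.72, -0.38 for HFHFr-N over HFHFr-F and 0.10 for HFHFr-FA over HFHFr-F. Adgre1, the gene of F4/80, had 2.39 on HFHFr-NA, 4.58 on HFHFr-N, 6.30 on HFHFr-FA, 7.47 on HFHFr-F and 3.87 on Control (-1.65, and -0.80 as the mean of its probes), and C1qa, a complement subunit, had 2.72 on HFHFr-NA against 6.76 on HFHFr-F (-1.32). Class II antigen presentation genes had similar ratios, with 8 of 9 lower at ratios between -1.35 and -1.02 and a median of -1.19. H2-Ab1, a class II beta chain, had 7.82 on HFHFr-NA, 10.6 on HFHFr-N, 19.5 on HFHFr-FA, 18.7 on HFHFr-F and 9.29 on Control (-1.26). Cd74, the invariant chain, had 4.76 on HFHFr-NA, 6.46 on HFHFr-N, 13.0 on HFHFr-FA, 9.64 on HFHFr-F and 4.94 on Control (-1.02). HFHFr-NA was the lowest pool for both and HFHFr-FA the highest, and the list's median for HFHFr-FA over HFHFr-F was 0.32. After the other background correction with quantile normalization the class II median was -0.91.

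Among 24 inflammation and chemokine genes 12 were lower and 0 higher, with a median of -1.05, or -0.56 after that background correction. Of the 24, 6 were bounds of genes well above background on HFHFr-F alone. Genes measured on both arrays had a median of -1.24. Ccl2, the chemokine that recruits monocytes, had 0.165 on HFHFr-NA, 0.255 on HFHFr-N, 0.966 on HFHFr-FA, 1.65 on HFHFr-F and 0.167 on Control (-3.32). Also lower were the calcium-binding proteins S100a11 (-2.60) and S100a4 (-2.13), the pattern receptor Tlr2 (-1.90), the chemokine Cxcl10 (-1.72) and the adhesion molecule Vcam1 (-1.46). Vcam1 had 2.74 on HFHFr-NA, 2.41 on HFHFr-N, 6.78 on HFHFr-FA, 7.56 on HFHFr-F and 2.04 on Control, which placed HFHFr-NA and HFHFr-N near Control and HFHFr-FA near HFHFr-F. Of 7 measured monocyte and neutrophil markers 2 were lower and 0 higher. Their median was -0.62, -0.29 with genes measured on both arrays and -0.06 with the mean of all probes. The farthest apart of them, the monocyte marker Ly6c2, had 2.58 on HFHFr-NA, 3.74 on HFHFr-N, 7.07 on HFHFr-FA, 16.0 on HFHFr-F and 2.40 on Control (-2.63). Of 9 measured T and NK cell markers 0 were called in either direction, with a median of -0.27.

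Interferon-induced genes had 10 of 28 members lower and 0 higher, with a median of -0.65, against -0.25 for HFHFr-N over HFHFr-F and -0.13 for HFHFr-FA over HFHFr-F. Gbp2, a guanylate-binding GTPase, had 0.815 on HFHFr-NA, 1.16 on HFHFr-N, 2.22 on HFHFr-FA, 2.34 on HFHFr-F and 1.09 on Control (-1.52). Ifit3 differed by -1.39, Oasl2 by -1.30 and Usp18 by -1.06. Cmpk2, a mitochondrial nucleotide kinase, had 0.210 on HFHFr-NA, 0.507 on HFHFr-N, 0.561 on HFHFr-FA, 0.657 on HFHFr-F and 0.669 on Control (-1.64), so HFHFr-NA was the low pool and the other four were alike. Ubd and H2-Q1 stand outside the list. Ubd, a ubiquitin-like protein raised by inflammation, had 1.95 on HFHFr-NA against 19.6 on HFHFr-F (-3.33). H2-Q1, a class I gene, had 0.485 on HFHFr-NA against 6.72 on HFHFr-F (-3.79). Against HFHFr-F, Ubd had -3.65 on HFHFr-N and -1.58 on HFHFr-FA, and H2-Q1 had -2.63 and -3.06.

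Of 30 measured matrix genes 13 were lower and 0 higher (median -0.80, with -0.92 for HFHFr-N over HFHFr-F and -0.34 for HFHFr-FA over HFHFr-F). Of the 30, 6 were bounds of genes well above background on HFHFr-F alone. Genes measured on both arrays had a median of -0.78. Col1a1, a chain of type I collagen, had 0.299 on HFHFr-NA, 0.410 on HFHFr-N, 1.1 on HFHFr-FA, 3.64 on HFHFr-F and 0.209 on Control (-3.61). Col3a1, of type III collagen, had 1.14 on HFHFr-NA, 1.76 on HFHFr-N, 3.11 on HFHFr-FA, 10.2 on HFHFr-F and 1.04 on Control (-3.16). Both were 0.52 or less above Control in HFHFr-NA, and HFHFr-FA was between HFHFr-NA and HFHFr-F. With the mean of all probes the ratios were -2.34 for Col1a1 and -1.07 for Col3a1. Col1a2 (-1.55), the proteoglycan lumican Lum (-1.90) and the protease inhibitor Timp1 (-1.10) were lower too. Stellate cell markers, from the cells that make this matrix, had a median of 0.00 with 1 of 14 lower, and cholangiocyte markers -0.85 with 3 of 9 lower. These marker values stand beside the matrix counts, and their part in them was not tested.

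Spink1, a trypsin inhibitor, had the lowest ratio measured on both arrays, with 0.0927 on HFHFr-NA, 0.142 on HFHFr-N, 0.118 on HFHFr-FA, 1.45 on HFHFr-F and 0.0461 on Control, with no signal well above background on Control (-3.97). Cdkn1a, the cell cycle inhibitor p21, had 0.408 on HFHFr-NA, 0.238 on HFHFr-N, 5.18 on HFHFr-FA, 3.97 on HFHFr-F and 0.618 on Control (-3.28), with HFHFr-FA above HFHFr-F and the pools on chow low. Proliferation genes were lower for 6 genes of 23 and higher for 0, with a median of -0.54, at low signals: Mki67 had 0.176 on HFHFr-NA against 0.469 on HFHFr-F (-1.42), under 2-fold at -0.62 after the other background correction. For proliferation genes 3 of the 23 were bounds, and those measured on both arrays had a median of -0.53. Of 20 immediate early genes 7 were lower and 1 higher, and 5 were bounds. Their median was -0.46, or -0.40 with genes measured on both arrays. Atf3 had 0.199 on HFHFr-NA, 0.246 on HFHFr-N, 1.47 on HFHFr-FA, 1.44 on HFHFr-F and 0.133 on Control (-2.85) and Jun 0.712 on HFHFr-NA against 2.33 on HFHFr-F (-1.71), while Junb was higher (1.36, with another probe at 0.16).

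**Figure D4:**
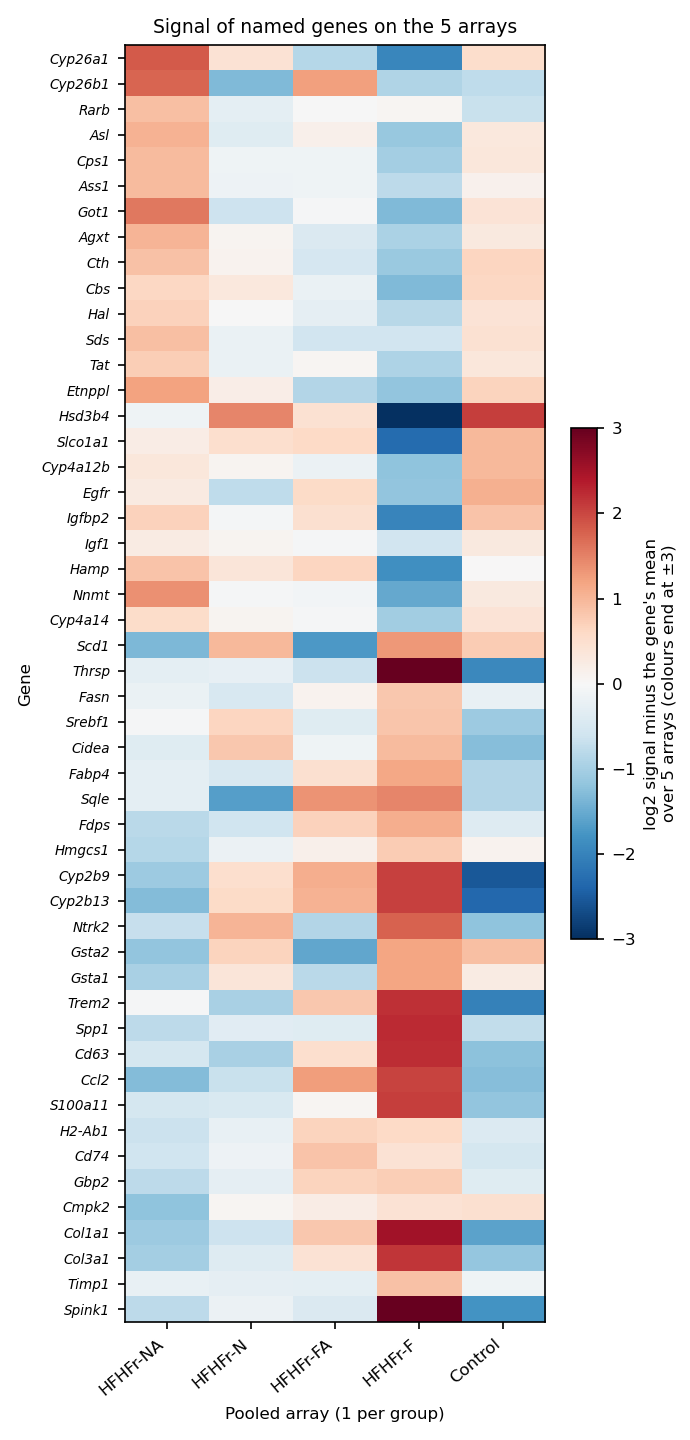
Log2 signal of named genes on the 5 arrays, each row centred on the gene's mean over the arrays; red is above and blue below that mean, and colours end at 3 in each direction. The HFHFr-F column holds most of the strongest colours. They are blue in the upper rows (Cyp26a1, amino acid and male-biased genes) and red in the lower rows (lipogenic, female-biased, macrophage and matrix genes).

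Genes of 2 secreted liver proteins were among the 15 highest ratios. Hamp, hepcidin, the hormone that limits iron uptake, had 215 on HFHFr-NA, 153 on HFHFr-N, 186 on HFHFr-FA, 33.2 on HFHFr-F and 119.9 on Control (2.70). Igfbp2, a binding protein of insulin-like growth factors, had 175 on HFHFr-NA, 104 on HFHFr-N, 149.8 on HFHFr-FA, 27.2 on HFHFr-F and 195 on Control (2.68). For both, HFHFr-F was the lowest pool and the other four lay well above it. Igf1 had 149 on HFHFr-NA against 85.9 on HFHFr-F and was not called. Igfbp1, whose transcription insulin represses, had 87.6 on HFHFr-NA, 27.4 on HFHFr-N, 477 on HFHFr-FA, 97.4 on HFHFr-F and 76.7 on Control, so HFHFr-NA was level with HFHFr-F (-0.15) and HFHFr-FA far above both. Acute phase genes had 2 of 27 higher and 4 lower (median -0.00). The serum amyloid gene Saa1 had 175 on HFHFr-NA, 118 on HFHFr-N, 569 on HFHFr-FA, 289 on HFHFr-F and 38 on Control (-0.72), and HFHFr-NA was above Control by 2.21. Lcn2, lipocalin 2, had 1.11 on HFHFr-NA against 2.81 on HFHFr-F (-1.35).

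Of 18 insulin and IGF signalling genes, Igfbp2 was the 1 called. In the leptin receptor, STAT and SOCS list 1 of 13 was lower, Stat5a with 1.83 on HFHFr-NA against 3.70 on HFHFr-F (-1.02), and 0 were higher. Lepr, the leptin receptor gene, had 0.126 on HFHFr-NA and 0.226 on HFHFr-FA but was not well above background on HFHFr-F, so its ratio was at least 0.77, under 2-fold as a bound. Socs2, a growth hormone feedback inhibitor, had 0.542 on HFHFr-NA, 1.06 on HFHFr-N, 3.29 on HFHFr-FA, 0.950 on HFHFr-F and 2.38 on Control, with HFHFr-NA the lowest pool and -2.14 against Control.

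Of 16 measured clock genes 3 were higher and 1 lower (median 0.34). Dbp, an output factor of the clock, had 108 on HFHFr-NA, 118 on HFHFr-N, 8.56 on HFHFr-FA, 30.1 on HFHFr-F and 46.4 on Control (1.85). Nr1d1, the repressor REV-ERB alpha, was higher by 2.32 and Ciart, another clock repressor, by 2.77. Arntl, the gene of the clock activator BMAL1, had 0.100 on HFHFr-NA and 1.14 on HFHFr-FA, against 0.423 on HFHFr-F and 0.441 on Control (-2.08, and -0.79 after the other background correction). HFHFr-NA and HFHFr-N shared the high Dbp and low Arntl state, and HFHFr-FA was at the opposite end. On HFHFr-N, Arntl had 0.0697 and was not well above background. On HFHFr-NA it was close to the lowest signal measured there, 0.0743. The sources used here do not give the hour at which each liver was taken, and its part in these values was not tested.

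Some genes placed HFHFr-NA beyond both single interventions. Among genes well above background on the 4 diet arrays, Asns, asparagine synthetase, lay farthest, with 3.48 on HFHFr-NA, 0.396 on HFHFr-N, 0.519 on HFHFr-FA, 1.08 on HFHFr-F and 2.42 on Control. HFHFr-NA was 1.69 above HFHFr-F, whereas HFHFr-N (-1.44) and HFHFr-FA (-1.05) were below HFHFr-F. HFHFr-NA was near Control for Asns (0.53). The amino acid response list that holds Asns had 2 of 18 genes higher and 3 lower. Kiss1, the gene of the peptide kisspeptin, had 2.69 on HFHFr-NA, 0.476 on HFHFr-N, 0.545 on HFHFr-FA, 0.242 on HFHFr-F and 0.849 on Control (3.48). Gnat1, a transducin subunit known from rod cells, had 1.87 on HFHFr-NA against 0.189 on HFHFr-F (3.30). Epop, a Polycomb-associated protein gene, had 1.65 on HFHFr-NA against 0.314 on HFHFr-F (2.40). These 3 genes were 1.66 to 1.70 above Control in HFHFr-NA. The dim genes Cped1, Ttll1 and Kif12 were called as well, at 2.24, 1.39 and 1.5, and all 3 were under 2-fold after the other background correction (0.95, 0.56 and 0.70).

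On the lower side HFHFr-NA lay beyond both single interventions for Serpina7, the thyroxine-binding globulin gene, with 0.656 on HFHFr-NA, 2.53 on HFHFr-N, 3.58 on HFHFr-FA, 6.89 on HFHFr-F and 1.28 on Control (-3.39). Aqp8, an aquaporin of hepatocytes, had 16.1 on HFHFr-NA, 53.6 on HFHFr-N, 46.0 on HFHFr-FA, 129 on HFHFr-F and 49.4 on Control (-3.0), so HFHFr-NA was also below Control (-1.62). Gbp6, an interferon-induced GTPase, had 0.312 on HFHFr-NA against 1.55 on HFHFr-F (-2.31) and was below Control as well (-1.69). Car3, carbonic anhydrase 3, was called at -2.03, but a second probe had 0.02. Cyp2b13, Cyp2b9 and Cmpk2, described above, belong with them.

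**Figure D5:**
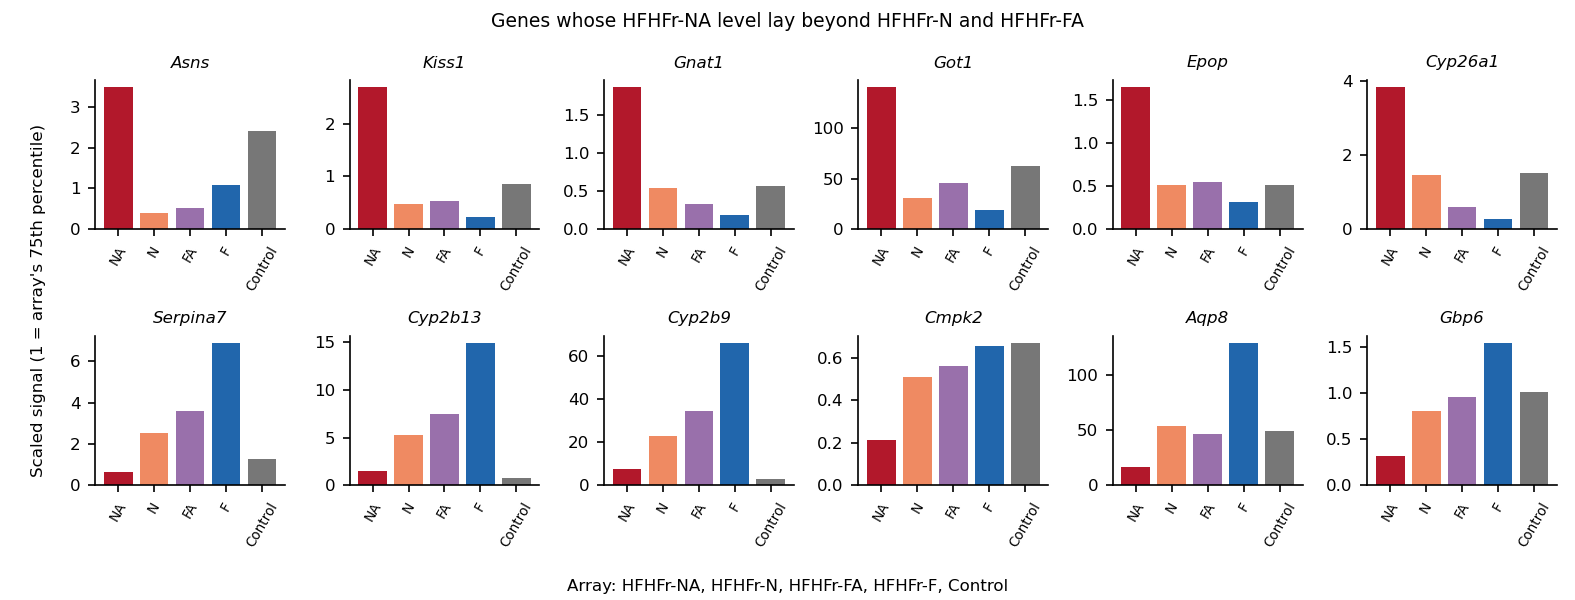
Scaled signal on each array (1 is the array's 75th percentile; linear axes from 0) for 12 genes, 1 bar per pooled array in the order HFHFr-NA, HFHFr-N, HFHFr-FA, HFHFr-F, Control. In the upper row HFHFr-NA is the highest bar, and in the lower row it is the lowest of the 4 diet pools and HFHFr-F the highest of those 4.

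Other genes set HFHFr-F apart from all 4 other pools, HFHFr-NA among them. Thrsp and Spink1 lay farthest above, each with a gap of 3.36 to the nearest pool, followed by Sdcbp2 (3.11), H2-Q1 (2.63), Spp1 (2.58), Cbr3 (2.29), Adgrv1 (2.13) and the sulfate transporter gene Slc13a4 (2.11). Below all others were Hsd3b4 (3.73), the olfactory receptor gene Olfr166 (2.72), Slco1a1 (2.53), the melanocortin receptor gene Mc1r (2.53), the defensin Defb19 (2.24), Igfbp2 (1.94), Rrp1b (1.87) and Hamp (1.85). Of these, Rrp1b had other probes at -0.04 and 0.13. Against Control, HFHFr-NA had 296 genes higher (2.01%) and 212 lower (1.44%) of 14724. HFHFr-F over Control had 789 higher (5.39%) and 470 lower (3.21%) of 14627.

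Ratios against an array that did not measure the gene are bounds. Besides Hsd3b5, the highest were Syt14 (at least 10.3-fold higher in HFHFr-NA), Slc25a34 (at least 8.32-fold), Cnmd (at least 6.58-fold) and Olfr1290 (at least 6.39-fold). These 4 were well above background on the HFHFr-NA array alone, and Cnmd and Olfr1290 were under 2-fold after the other background correction (0.89 and 0.95). The lowest were the organic anion transporter gene Slc22a29 (at least 13.1-fold lower), Gipc2 (at least 9.53-fold), the lung surfactant protein gene Sftpd (at least 9.07-fold), the lectin Cd209f (at least 8.61-fold, or -0.48 on the log2 scale as the mean of its probes) and Gpnmb.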

How the data were processed

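Members of the gene lists and the comparison itself were chosen with earlier results of these data known. RNA pooled from 5 mice per group was labelled with Cy3 and hybridised in 1 colour to Agilent whole mouse genome arrays, per the labels. Per the file headers, quantification used Feature Extraction 10.5.1.1, and probe positions are mm9, per the submitters' processing notes and the files. Per the file headers, the deposited processed intensity had local background removed and a spatial trend fitted on the same array, with no scaling between arrays. The mean and background intensity are deposited as scanned. Set against the scanner values, the authors' deposited value table proved to be the processed intensity divided by 1 number per array, a linear ratio that is not centred and runs in the direction of the signal. Its column medians were 0.0744 on HFHFr-NA, 0.0738 on HFHFr-N, 0.0721 on HFHFr-FA, 0.0675 on HFHFr-F and 0.0700 on Control.

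Here each processed intensity was divided by the 75th percentile of its array's non-control spots, and the log2 values of a probe's spots were averaged (Python 3.11.15, numpy 2.4.6, pandas 2.3.3). Outlier spots were left out (75 on HFHFr-NA, 95 on HFHFr-F) and 0 spots were saturated. Of 41174 probes, 25001 were named by accession through RefSeq's gene table and 16173 kept the file's name. Exon and untranslated region were not determined. The brightest probe over the 5 arrays stood for each of 28626 gene names, and 8588 names had several probes. Other probes of a gene are given where they disagreed, by more than 1 (log2) or with the opposite sign and a size of 0.5 or more. Genes that the software marked well above background on either array entered. For a gene marked on 1 array alone the ratio is a bound, taken against its own signal on the dim array or against that array's lowest marked signal, whichever was higher.

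No test could be run with 1 array a group. A gene was called when at least 2-fold apart. Of 899 listed symbols 887 matched a gene name. Named genes were taken by a rule: the 15 highest and 15 lowest ratios on both arrays, 5 bounds in each direction, up to 4 members of each list with the largest absolute ratio, a core set, the 8 genes in each direction with HFHFr-NA farthest beyond HFHFr-N and HFHFr-FA, and the 8 in each direction with HFHFr-F farthest from all arrays. 2 genes are not reported here. Listed genes outside the rule, such as single enzymes of a called list, were named after their values were seen. Alternatives were median scaling, cyclic loess and normexp with quantile normalization (offset 50; R 4.3.3, limma 3.58.1), the deposited table, 2 filters, the mean of all probes and leaving out bright patches of spots.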

Additional observations from a re-analysis of the deposited data

How the results depend on the processing

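The counts of 529 higher and 640 lower genes moved by over 1.5 times with no filter on dim probes (1704 higher and 1393 lower of 28626 genes) and after normexp background correction with quantile normalization (129 higher and 246 lower). The offset of 50 in that correction draws the ratios of dim genes towards 0 by construction. Other counts were 383 higher and 793 lower with median scaling, 384 and 784 after cyclic loess, 531 and 635 from the authors' deposited table, 368 and 507 with genes measured on both arrays, 503 and 549 with the mean of all probes, and 518 and 630 without bright patches. Signs were compared for the 207 genes named by rule: 0 of the 152 called ones changed sign under these alternatives, and with the mean of all probes 204 of 207 kept theirs. Most alternatives could not reverse a called gene. The deposited table and median scaling shift all ratios by a constant smaller than a call. The filters keep or drop genes, and leaving out bright patches touched 1 named gene. Cyclic loess, normexp with quantile normalization and the mean of all probes could reverse one. Between 40 and 45 of the 45 list medians kept their sign. Of 152 called named genes, 42 were under 2-fold after normexp and quantile normalization, 19 with the mean of all probes, 3 after cyclic loess, 2 with median scaling and 0 with the deposited table. Apart from those given above, the calls that ended with the mean of all probes included Ccr2 and Ifit2. Ccr2 had -0.06 against a bound of -2.13, and Ifit2 -0.00 against a bound of -1.84. That mean takes in every probe of a gene, also those not well above background. Ccr2 and Ifit2, like Itgax, Gpnmb, Adgre1, Col3a1 and Eif2ak3, had no other probe well above background on both arrays. How far such probes moved these ratios was not tested. Psat1, a serine synthesis gene with a bound of -1.90, was the 1 named gene in a bright patch, with 5 bright surrounding spots on HFHFr-F. No paired analysis was possible because each group is 1 array. Precision is limited by 1 pooled array a group: signals near the lowest measured, 0.0743 on HFHFr-NA and 0.0736 on HFHFr-F, give bounds or ratios that the filter and background correction can move.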

Other observations

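Several lists not described above had small or mixed values. Endothelial markers had a median log2 ratio of HFHFr-NA over HFHFr-F of 0.02 with 0 of 17 called. The endoplasmic reticulum stress list had 2 of 30 lower, 0 higher and a median of 0.09. The 2 were Atf3 and Eif2ak3, the gene of the stress kinase PERK, with 0.798 on HFHFr-NA against 1.79 on HFHFr-F (-1.17, or -0.66 as the mean of its probes). That list's median was 0.52 for HFHFr-FA over HFHFr-F, which shares the HFHFr-F array. Heat shock genes had 2 of 18 lower, the inducible Hspa1a with 0.550 on HFHFr-NA, 0.498 on HFHFr-N, 1.61 on HFHFr-FA, 2.0 on HFHFr-F and 0.745 on Control (-1.86) and its near-identical copy Hspa1b (-1.21). For Hspa1a the ratio was -2.01 for HFHFr-N over HFHFr-F and -0.31 for HFHFr-FA over HFHFr-F.

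Gadd45g, a stress-induced gene of liver, was higher, with 51.0 on HFHFr-NA, 12.4 on HFHFr-N, 87.8 on HFHFr-FA, 19.1 on HFHFr-F and 26.1 on Control (1.42). Of 4 measured erythroid markers, the alpha globin gene Hba-a1 was lower, with 47.6 on HFHFr-NA, 64.1 on HFHFr-N, 45.7 on HFHFr-FA, 118 on HFHFr-F and 61.7 on Control (-1.31), and the erythroid factor gene Klf1 was higher, with 0.795 on HFHFr-NA against 0.242 on HFHFr-F (1.72, or 0.96 after normexp and quantile normalization). Lgals1, galectin 1, had 9.81 on HFHFr-NA, 39.4 on HFHFr-N, 16.3 on HFHFr-FA, 95.6 on HFHFr-F and 16.0 on Control (-3.28). HFHFr-F was the highest pool for Hba-a1 and for Lgals1, and HFHFr-NA was the lowest pool for Lgals1.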
